A study of Mus musculus with 2 samples.

Results

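Isolated CTCF peaks were taken as the autosomal peaks of the optimal peak list whose nearest other summit in that list lay more than 100 kb away on both sides. They numbered 1487 of 55759 autosomal peaks (2.67%), and the list held 57220 peaks in all. The summit is the position of the highest signal that the authors deposited for each peak, and a side that ended at a chromosome end counted as empty. The other 54272 autosomal peaks are the comparison throughout, and the 23735 peaks with another summit within 5 kb serve as the crowded extreme.

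The series measured CTCF binding by chromatin immunoprecipitation and sequencing (ChIP-seq) in 1 group, newborn liver (postnatal day 0) of the mouse strain B6NCrl, with 2 replicates and no treatment or genotype contrast. Per the labels, each sample came from pulverized livers pooled over several dissections, the sex was not collected, and both samples carry the same biosample and donor label, so the spread between the replicates may be technical. Pooled tissue mixes hepatocytes, blood-forming and other cells, so weak binding in all cells and strong binding in few cells cannot be told apart. The labels name CTCF as the antibody target, and the core motif described below is the check of that label.

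CTCF binds a long asymmetric DNA motif through its row of zinc fingers. Cohesin, a ring-shaped complex that extrudes chromatin loops, is halted at CTCF sites, and it is halted most often where 2 sites point towards each other. Such convergent pairs mark the feet of many loops and the borders of many domains. CTCF sites are commonly dense around active genes and sparse in gene deserts.

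The members were chosen by measured positions. Their number, their distances and their lack of neighbours are therefore descriptions, and no test was made on them. Signal, core sequence, strand and annotation were not used in the choice, but peaks are not replicates of a condition, so differences between isolated and other peaks are given with both replicates' values or with exact binomial intervals (Clopper-Pearson, 95%) and were not tested. These intervals cover counting error over peaks only.

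Each summit was searched for the 14-base CTCF core, on both strands and within 50 bp, and a peak was said to carry it when the best match had at most 2 mismatches. The sequences below show the best core and its flanks at members from each end of the set, because the range of binding at closely similar cores is what the signal values below turn on. Capitals mark the core, each sequence is written 5′ to 3′ on the strand of the core, and positions are on mm10 (GRCm38). The first group holds the 6 strongest members.
Rab32 promoter, chr10:10558270-10558299, minus strand, perfect core, signal 465.8: gtctaaggCCAGCAGGGGGCGCtgtggacc
Intergenic near Ddx1, chr12:13215082-13215111, minus strand, 2 mismatches, signal 444.0: agttctgtACACTAGGTGGTGCtagtgtcg
Intergenic, chr15:67434485-67434514, minus strand, perfect core, signal 391.5: cacaaggtCCAGTAGGTGGCGCaagagagc
Cpne8 promoter, chr15:90680143-90680172, plus strand, 1 mismatch, signal 381.0: ggcgatggCCGCCAGGGGGCGGtggagagc
Pibf1 intron, chr14:99142429-99142458, plus strand, perfect core, signal 378.8: cacagttgCCACCAGATGGCGCcaaagtgc
Intergenic near Ebf1, chr11:45008294-45008323, minus strand, perfect core, signal 339.8: ggctcatgCCAGCAGAGGGCAGcagtacgc
The next 4 sequences are from the 10 members with the largest distance to the nearest other summit, and all 4 have at most 1 mismatch. The members of these 10 that are not printed had 1 to 4 mismatches, and the most isolated of all had 3.
Intergenic, chr2:99237136-99237165, plus strand, 1 mismatch, signal 82.1: gcttctgaACACTAGGGGGCGCcctcattg
Exon of Gm42862, chr5:59996978-59997007, minus strand, 1 mismatch, signal 58.1: tgtggctaCCACCAGAGGGCTCagcaggaa
Intergenic, chr5:80508878-80508907, minus strand, perfect core, signal 41.2: aacaactgCCACCAGATGGCACcaaattgc
Intergenic, chr17:61321059-61321088, minus strand, 1 mismatch, signal 13.3: aggagctgCCAGTAGGAGGCGCtgctctaa
The last 3 sequences are the weakest members with a perfect core.
Near Gm13123, chr4:144254943-144254972, plus strand, signal 12.5: ctgaagcaCCAGCAGATGGCAGtattgatt
Near Itgb8, chr12:119169963-119169992, plus strand, signal 14.6: gactgtaaCCAGTAGGTGGCAGtgaactaa
Near Gm20586, chr8:55398512-55398541, minus strand, signal 16.5: caaaccagCCACTAGAGGGCACagacatta

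Isolated peaks carried the core more often than other peaks. At most 2 mismatches were found at 1164 isolated peaks, 78.3% (95% interval 76.1 to 80.4), against 71.0% (70.6 to 71.3) of other peaks and 71.2% of all autosomal peaks. A perfect core lay under 193 isolated peaks, 13.0% (11.3 to 14.8), against 9.55% (9.30 to 9.80) of other peaks and 9.64% of all. In windows displaced by 1 kb from the summit the core was found at 1.34% of isolated peaks and 3.05% of other peaks (3.0% of all). It was found there at 3.78% of peaks with another summit within 5 kb. A displaced window can fall on a neighbouring peak, which the rule excludes at isolated peaks. This contrast is therefore in part set by the choice of members. Of the peaks with a summit within 5 kb of another, 68.2% carried the core.

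The higher core share was seen at every level of signal. All autosomal peaks were divided into 5 equal groups by deposited signal. From the weakest to the strongest group, 63.3%, 75.5%, 82.0%, 90.3% and 94.8% of the isolated peaks carried the core. The shares of the other peaks were 47.2%, 62.5%, 72.5%, 82.2% and 90.0%, and the intervals of isolated and other peaks were apart in the 4 weaker groups and overlapped in the strongest, which held 77 isolated peaks. The weakest group held 338 isolated peaks. More than 1 core match within 150 bp was found at 103 isolated peaks, 6.93% (5.69 to 8.34), against 9.22% (8.98 to 9.47) of other peaks and 9.16% of all.

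Their signal was nonetheless lower. The deposited signal, whose scale is not stated, had a median of 49.9 at isolated peaks (quartiles 27.1 and 105.3, range 9.43 to 465.8), against 72.5 at other peaks (quartiles 30.5 and 189.6). In the list of replicate 1 the medians were 25.7 at isolated and 39.0 at other peaks, and in the list of replicate 2 they were 24.6 and 37.5. The quartiles overlap widely, and the gap lies mainly at the strong end. Only 5.18% of isolated peaks were in the strongest of the 5 signal groups.

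The difference grew with the quality of the core. Over a perfect core, isolated peaks had a median signal of 102.1, against 235.9 at other peaks, a ratio of 0.433 (0.412 in replicate 1 and 0.457 in replicate 2). With 1 mismatch the medians were 60.9 at isolated peaks and 124.0 at other peaks, a ratio of 0.491 (0.507 in replicate 1 and 0.476 in replicate 2). With 2 mismatches the ratio was 0.720, with 3 it was 0.812 and with 4, where the medians were 28.0 at isolated and 28.6 at other peaks, it was 0.977. The medians of isolated peaks thus differed less between perfect and mismatched cores than those of other peaks. The perfect cores printed above span much of this range, with 465.8 at the Rab32 promoter and 12.5 near Gm13123.

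**Figure D1:**
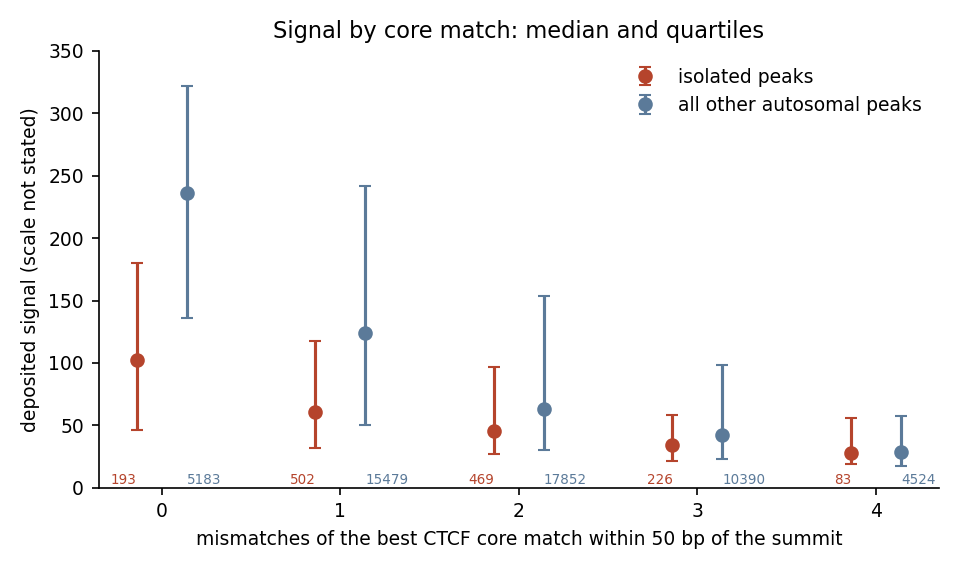
Deposited signal (scale not stated, linear axis) by the number of mismatches of the best core within 50 bp of the summit, for isolated peaks (red) and all other autosomal peaks (blue). Points are medians, bars run from the lower to the upper quartile, and the small numbers are peaks; the medians of 102.1 and 235.9 over a perfect core stand farthest apart.

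Base composition moved with isolation, so the comparison was repeated within it. The GC share within 250 bp of the summit had a median of 41.9% at isolated peaks, against 47.3% at other peaks. Split into 5 classes of this share, isolated peaks over a perfect core had 0.435 to 0.601 times the median signal of other peaks, and with 1 mismatch 0.395 to 0.695 times. Split by the GC share within 100 kb, the ratios over a perfect core were 0.777, 0.623, 0.836, 0.606 and 0.377, from the lowest to the highest class. With 1 mismatch they were 0.538 to 0.790. The ratio thus remained below 1 in all 20 of these classes. Most of the class ratios were nearer to 1 than those without a split, 0.433 over a perfect core and 0.491 with 1 mismatch. The class with 0.377, above 44% GC, was the smallest and held 11 isolated peaks with a perfect core. By annotation, isolated peaks over a perfect core had a median of 95.4 at promoters (13 peaks), 96.7 in introns (58 peaks) and 114.5 in intergenic sequence (120 peaks), against 262.6, 228.8 and 233.5 at other peaks of the same classes. Part of the signal difference moved with the GC share of the surrounding 100 kb, and the part that GC-dependent recovery of fragments has in it was not tested.

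The threshold of 100 kb fell on a gradient. From a nearest summit within 1 kb to one beyond 500 kb, the median signal over a perfect core was 246.1 (under 1 kb), 261.1 (1 to 5 kb), 237.8 (5 to 20 kb), 190.5 (20 to 50 kb), 141.2 (50 to 100 kb), 129.6 (100 to 200 kb), 78.9 (200 to 500 kb) and 78.4 (beyond 500 kb, 14 peaks). The share of peaks with the core ran the other way, from 58.2% under 1 kb through 75.1% at 50 to 100 kb to 77.3%, 80.2% and 79.4% in the 3 isolated classes. Promoter peaks made up 39.4% of those with a neighbour under 1 kb and 5.15% of those isolated by more than 500 kb. No break stood at the threshold in any of these measures.

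**Figure D2:**
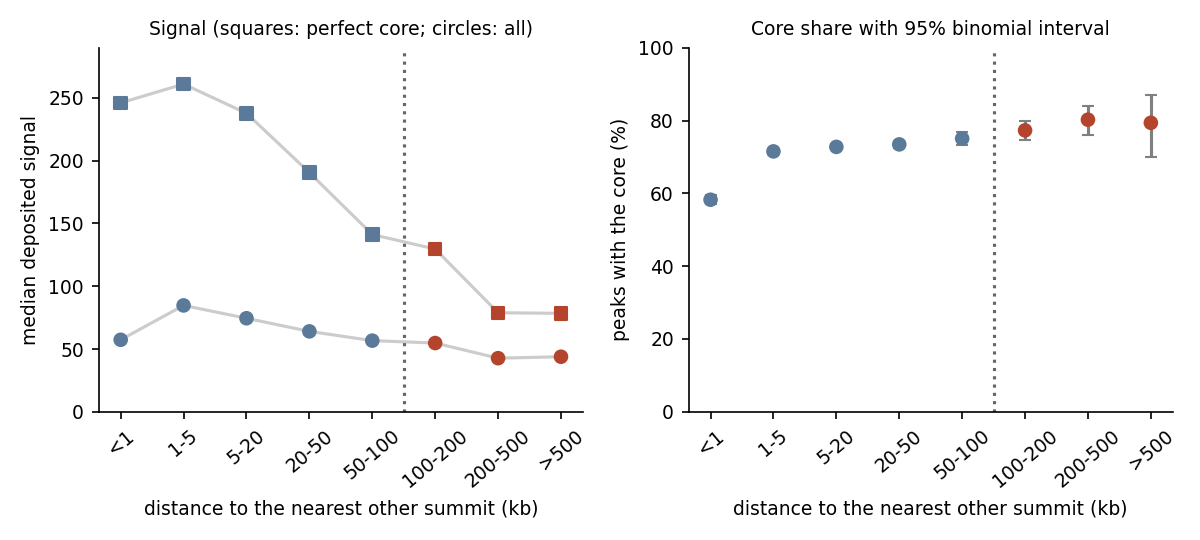
Left, median deposited signal of all peaks (circles) and of peaks over a perfect core (squares) by the distance to the nearest other summit in kb; right, share of peaks with the core in percent, with 95% binomial intervals. The dotted line marks 100 kb, and isolated classes (red) continue the slope of the others (blue), with the perfect-core median at 78.4 beyond 500 kb.

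The peaks next to the threshold were of all strengths. The 5 members nearest to it, with a neighbour 100.02 to 100.3 kb away, had signals of 34.1 in an intron of Slc22a22, 273.2 between genes and 18.98 kb from Grxcr1, 126.6 in an intron of Gm31698, 50.3 in intergenic sequence 47.0 kb from Gjd2 and 16.5 in an intron of Unc13c. The 5 peaks just outside, with a neighbour 99.8 to 99.97 kb away, had 63.2 in an intron of Mpp7, 245.7 in intergenic sequence, 14.4 in an intron of Dock4, 31.5 in an intron of Sfmbt2 and 101.8 in intergenic sequence 19.4 kb from Sox17. The signals of the 2 sets overlap widely.

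The core bases of isolated peaks differed most at positions 4, 5 and 9, which were chosen after the shares were seen. Positions are counted from 1 at the first base of the core, over the 1139 isolated and 37178 other peaks with 1 best match of at most 2 mismatches. At position 5, T stood in 44.5% of isolated and 29.9% of other cores, and A, a mismatch there, in 19.1% and 29.6%. At position 4, C stood in 52.2% of isolated and 42.5% of other cores. At position 9, T stood in 42.1% of isolated and 29.1% of other cores, and G in 54.3% and 67.2%. Over perfect cores alone the shift was smaller at position 5, where T stood in 41.5% of isolated and 37.9% of other cores, and remained at position 9, with 51.8% and 41.8%. Past the core, at position 17, G stood in 27.1% of isolated and 40.4% of other sites. T was not more frequent throughout the core: at position 14, where it is a mismatch, it stood in 8.43% of isolated and 15.4% of other cores. The GC share of the surroundings was lower at isolated peaks, and its part in these shares was not tested.

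Isolated peaks were lower with either of the commoner bases at positions 5 and 9. Perfect cores with T at position 9 had a median signal of 104.9 at isolated and 237.9 at other peaks, and those with G had 95.1 and 233.3. With T at position 5 the medians over a perfect core were 102.2 and 232.5, and with C they were 101.7 and 237.7. The ratio of isolated to other peaks was 0.408 to 0.441 in these 4 classes.

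The replicates placed isolated peaks at the same sites. Both replicate lists held a summit within 100 bp for 1461 isolated peaks, 98.3% (97.4 to 98.9), against 97.03% of other peaks and 97.1% of all, and the replicate summits lay a median of 10 bp apart at isolated and 9 bp at other peaks. Replicate 1 held 99.4% of isolated peaks (98.5% of all) and replicate 2 held 98.9% (98.3% of all). Across the 1461 isolated peaks, which share the libraries, the signals of the replicates had a Spearman's rho of 0.929, against 0.962 across other peaks. The optimal list was made from these same replicates, so none of these values is independent of it. The conservative list held 1301 isolated peaks, 87.5% (85.7 to 89.1), against 87.8% of other peaks and 87.8% of all. In the weakest of the 5 signal groups, it held 54.7% of isolated and 46.8% of other peaks.

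**Figure D3:**
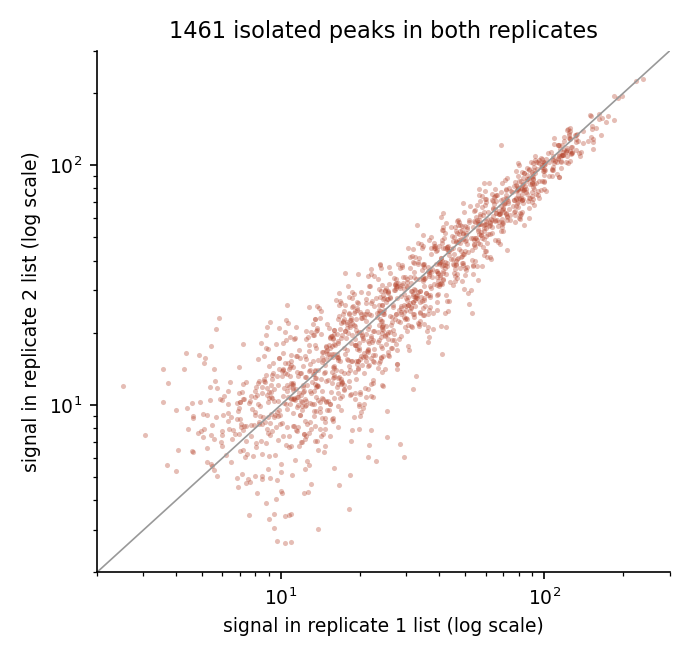
Deposited signal of the 1461 isolated peaks found in both replicates, replicate 1 on the horizontal and replicate 2 on the vertical axis, both on log scales; the line marks equal values. The points follow the line and spread more at the weak end, with medians of 25.7 and 24.6.

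Isolation itself depended in part on which list was used. When the conservative list was searched, 157 members (10.6%, 9.04 to 12.2) had another summit within 100 kb, since that list is not a subset of the optimal one. Of the members, 1165 (78.3%) were present and isolated in the conservative list. Among the strongest peaks of each replicate alone, as many as the optimal list holds, 1186 (79.8%) were present and isolated in replicate 1 and 1181 (79.4%) in replicate 2. Each of these lists had a similar number of isolated peaks in all, 1536 in the conservative list, 1480 in replicate 1 and 1513 in replicate 2.

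The deserts around isolated peaks were not empty of weak calls. The replicate and pooled lists run to 300000 peaks each and hold calls far weaker than the optimal list. Within 100 kb, isolated peaks had a median of 12 other calls in replicate 1, 11 in replicate 2 and 10 in the pooled list, whereas other peaks had 39, 40 and 41. The strongest of these other calls had a median signal of 0.205 (replicate 1), 0.207 (replicate 2) and 0.177 (pooled) times that of the isolated peak itself. An isolated peak was therefore the highest call of its neighbourhood almost everywhere.

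Exceptions were few. A stronger other call lay within 100 kb at 66 of 1478 members in replicate 1 (4.47%), 59 of 1470 in replicate 2 (4.01%) and 38 members in the pooled list (2.56%, against 84.3% of all autosomal peaks). The member was present and had no stronger call nearby at 94.96% of members in replicate 1 and 94.9% in replicate 2, against 15.6% of all peaks in each. At 152 members (10.2%, 8.73 to 11.9), against 97.3% of all peaks, a pooled call within 100 kb ranked high enough to fall among as many peaks as the optimal list holds. The highest ratio, 8.59, belonged to a member of signal 13.5 near the start of chromosome 18, whose neighbouring pooled call had a signal of 116.0. All of these shares rest on the absence of optimal peaks that defines the members.

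The strongest weak call around an isolated peak lacked the core in most cases. The strongest other pooled call within 100 kb carried it at 442 isolated peaks, 29.7% (27.4 to 32.1), against 88.3% of other peaks and 86.7% of all. In the replicate lists the shares were 21.5% in replicate 1 and 20.2% in replicate 2 around isolated peaks, against 86.4% and 86.5% around all. For other peaks that call is usually another optimal peak, so the 2 shares describe different kinds of call. Windows displaced by 1 kb from isolated summits had the core in 1.34%, so the calls around isolated peaks carried it more often than such windows.

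**Figure D4:**
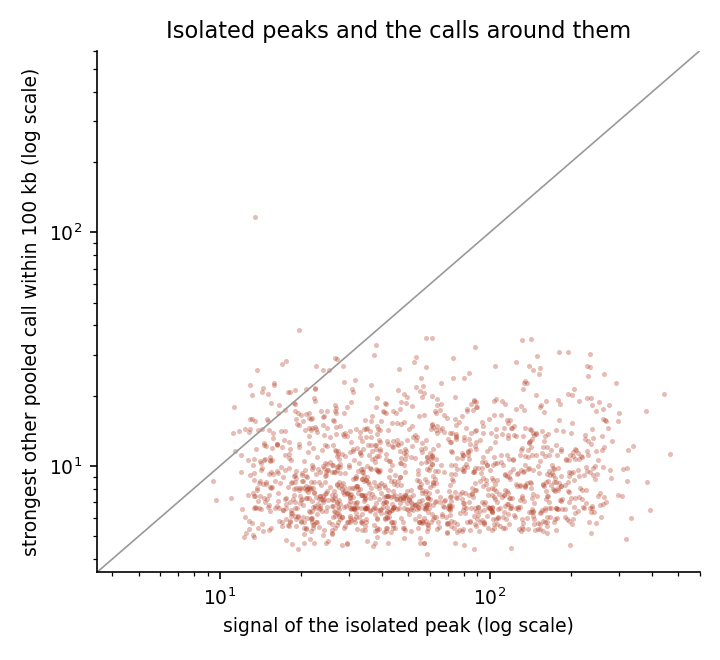
Signal of each isolated peak (horizontal) and of the strongest other pooled call within 100 kb (vertical), both on log scales, for the 1474 members with such a call; the line marks equal values. Nearly all points lie below the line, the surrounding calls have a median of 8.40, and 38 points lie above it.

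At 13 members the pooled list held no other call within 100 kb. All 13 were present in both replicate lists, 11 carried the core, and their signals ran from 15.2 to 158.2. Over all autosomal peaks 97.1% were in both replicate lists and 71.2% carried the core. One of the 13 lay on chromosome 4 at 60174905 to 60175188, with a signal of 20.2. It was 20.8 kb from a start of Mup2, a major urinary protein of liver. Another, with 36.0, lay on chromosome 14 at 6108572 to 6108855, at the promoter of Gm3468. For 6 of the 13 the nearest transcript start was that of a pseudogene of any kind. That share was not computed over all peaks. A processed pseudogene, 1 of these kinds, was nearest at 26.9% of all isolated peaks and 9.19% of all autosomal peaks. Reads from identical copies of a sequence cannot be placed in 1 position. Whether the surroundings of these members hold such copies was not measured, and the part of unplaceable sequence in the empty surroundings was not tested. Assembly gaps of at least 50 kb lay next to 4 members, and 7 members lay at a chromosome end.

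Unbound cores were not denser around isolated peaks than elsewhere. Within 100 kb of isolated peaks, 195 of 290 perfect cores lay inside an optimal peak, 67.2% (61.5 to 72.6), against 87.3% of the 6033 in the rest of the autosomes. With at most 1 mismatch the shares were 15.3% (14.3 to 16.4) of 4621 around isolated peaks and 38.01% elsewhere. The rule leaves no peak but the member itself within these 100 kb. The numbers inside peaks, 195 and 707, are close to the 193 and 695 members that carried such a core. The lower shares are therefore largely set by the choice of members and are not a separate result. Outside optimal peaks, cores with at most 1 mismatch occurred 13.8 times per Mb within 100 kb of isolated peaks (3914 sites in 284.7 Mb, each base counted once) and 16.6 times per Mb in the rest of the autosomes. Perfect cores outside peaks occurred 0.334 times per Mb around isolated peaks and 0.362 times elsewhere. Over all autosomes, 86.4% of 6323 perfect cores lay inside an optimal peak. No unbound perfect core lay within 100 kb of 1401 members (94.2%), and no unbound core with at most 1 mismatch lay within 100 kb of 123 (8.27%). Neither share was computed over other peaks, so they describe the members only. Perfect cores outside peaks were rare in the rest of the autosomes too, as the densities above show.

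Isolated peaks were mostly intergenic. Their summits were intergenic at 57.8% (55.3 to 60.4), against 32.8% of other peaks and 33.5% of all. Introns held 32.3% (30.0 to 34.8) of isolated and 40.9% of other peaks (40.6% of all), exons 1.48% (0.929 to 2.23) and 5.33% (5.23% of all), and promoters, taken as summits within 1 kb of any annotated transcript start, 8.34% (6.98 to 9.86) and 21.01% (20.7% of all). An annotated gene of any kind overlapped 38.9% of isolated peaks, 61.5% of other peaks and 60.9% of all. The nearest transcript start belonged to a processed pseudogene at 26.9% of isolated and 8.71% of other peaks.

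Protein-coding genes were far away. The nearest protein-coding start lay a median of 199.3 kb from isolated peaks, against 19.6 kb from other peaks. No such start lay within 100 kb of 1033 isolated peaks, 69.5% (67.1 to 71.8), against 13.5% of other peaks and 15.0% of all. None lay within 500 kb of 290 isolated peaks, 19.5% (17.5 to 21.6), against 0.796% of other peaks and 1.29% of all. Within 500 kb, isolated peaks had a median of 2 protein-coding starts and other peaks 12.

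The sequence around isolated peaks was poorer in GC and richer in repeats than that around other peaks, while the summits lay less often in repeats. The repeat share around isolated peaks was close to that of the autosomes. The GC share within 100 kb had a median of 39.3% at isolated and 45.2% at other peaks, where the autosomes as a whole have 41.9%. Repeat-masked sequence filled a median of 34.7% of the surrounding 100 kb on each side at isolated and 28.2% at other peaks, with 33.5% over the autosomes. The summit itself lay in repeat-masked sequence at 212 isolated peaks, 14.3% (12.5 to 16.1), against 22.7% of other peaks and 22.4% of all. This share was 18.7% at a nearest distance under 1 kb, 24.02% at 1 to 5 kb and 12.4% beyond 500 kb.

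Long genes of the nervous system held many isolated peaks. A gene over 200 kb in length overlapped 375 isolated peaks, 25.2% (23.0 to 27.5), against 11.9% of other peaks and 12.3% of all, and the median length of the host gene was 342.3 kb for isolated and 63.9 kb for other peaks. Of 20780 protein-coding genes, 351 (1.69%) held at least 1 isolated peak. Among 952 protein-coding genes over 200 kb it was 247 (25.9%). Gene length therefore goes with the counts below, and its part in them was not tested.

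The list of neuronal adhesion molecules and synapse organisers had the highest share of genes with an isolated peak. Most of its genes encode surface proteins of neurons or synaptic scaffolds, but it also holds Macrod2, which encodes an enzyme that removes ADP-ribose, and Nkain2. Of its 39 genes, with a median length of 906.2 kb, 29 (74.4%) held an isolated peak. Of the 223 peaks inside the listed genes, 56 (25.1%) were isolated. Among peaks in all protein-coding genes 1.40% were isolated, and among those in protein-coding genes over 200 kb it was 5.01%. The genes over 200 kb had a median length of 327.0 kb, so they do not match the list in length. Lsamp, a limbic membrane adhesion protein of the immunoglobulin family, held 7 isolated peaks among 16, with signals from 21.5 to 239.1, the most of any gene. Ptprd, a receptor phosphatase at synapses, held 4 among 9 (19.2 to 133.2). Dlg2, a postsynaptic scaffold, held 3 among 13 (20.1 to 239.1), and Macrod2 held 2 among 9, with up to 202.1. Opcml, an adhesion protein related to Lsamp, held 3 among 7, with up to 183.7, and the single peak of Nkain2 was isolated, with a signal of 256.3.

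Other gene groups followed at lower shares. These were 32.1% for channels, 34.3% for axon guidance, 26.7% for glutamate and GABA receptors and 17.6% for cadherins. Over all protein-coding genes the share was 1.69%, and over those longer than 200 kb it was 25.9%. The receptors thus lay near the share of long genes, and the cadherins below it, at median gene lengths of 348.6 and 126.7 kb. Potassium and calcium channels had 9 of 28 genes, among them Kcnip4, whose intron held a perfect core with a signal of 310.7. Axon guidance had 12 of 35, with 207.1 in Sema5a, 139.1 in Sema3d and 119.7 in Slit2, and receptors for glutamate and GABA had 8 of 30, with 260.6 in Grm8 and 238.2 in Grm5, both metabotropic glutamate receptors. Cadherins outside the protocadherin clusters had 6 of 34, with 229.2 in Cdh13, and of these Pcdh15, part of the tip link of hair cells, held 5 isolated peaks (23.6 to 94.1). Of genes in no list, Sgcd, a sarcoglycan of muscle, held 4 isolated peaks among 5, and all 3 peaks of Lrrc4c, a netrin-G ligand, were isolated (41.1 to 226.5). Both were chosen after their counts were seen.

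No gene of the hepatocyte and blood-forming lists held an isolated peak, counts that are near the 1.69% over all protein-coding genes at these list sizes. Isolated peaks lay in 0 of 27 hepatocyte genes, although 13 of these held some peak, and in 0 of 24 blood-forming genes, of which 20 held some peak. Fah, a liver enzyme gene with an isolated peak described below, was not in the hepatocyte list. The genes of CTCF and cohesin (0 of 19) and of cytosolic ribosomal proteins (0 of 78) had none either. Median gene lengths were 10.3 kb in the hepatocyte, 23.9 kb in the blood-forming and 34.2 kb in the CTCF and cohesin list, against 17.6 kb over all protein-coding genes. Among developmental transcription factors 5 of 56 held an isolated peak, with 249.98 in Zfhx3, 106.1 in Sox6 and 97.8 in Ebf1. An isolated peak lay in 5 of 1127 olfactory receptor genes (0.444%), 2 of 326 vomeronasal receptor genes (0.613%) and 4 of 358 zinc finger genes (1.12%). The share over all protein-coding genes was 1.69%, and the zinc finger genes lay near it. Olfactory receptor genes held only 34 peaks of any kind, and 5 of these (14.7%) were isolated, such as the peak of signal 51.7 in an exon of Olfr586. Vomeronasal receptor genes held 7 peaks, of which 2 (28.6%) were isolated. Of the peaks in zinc finger genes 1.24% were isolated, and of those in all protein-coding genes 1.40%.

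Among the 10 strongest members, 7 had a perfect core. The peak 18 bp from a start of Rab32, a small GTPase of lysosome-related organelles, had a signal of 238.4 in replicate 1 (rank 435) and 228.3 in replicate 2 (rank 508), with 149.9 kb free on 1 side and 591.1 kb on the other. The peak 14.3 kb from a start of Ddx1, an RNA helicase, had 222.4 in replicate 1 and 224.0 in replicate 2 over a core with 2 mismatches. These are strong peaks of the whole list, although the median rank of isolated peaks was 34018 in replicate 1 and 34041 in replicate 2. An intergenic peak on chromosome 15, 257.7 kb from St3gal1, a sialyltransferase, had 198.1 in replicate 1 and 195.0 in replicate 2. The Cpne8 promoter, of a calcium-dependent membrane-binding copine, had 190.8 in replicate 1 and 190.6 in replicate 2.

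The other strong members were similar in both replicates. They lay in an intron of Pibf1, a centrosomal protein (184.9 in replicate 1 and 194.1 in replicate 2), between genes and 96.2 kb from the nearest start of Ebf1, a B-cell transcription factor (184.7 and 154.7), 167.6 kb from Samd12 (175.6 and 160.0), in an intron of Fah, the last enzyme of tyrosine breakdown (161.2 and 163.1), 150.9 kb from Ptger3, a prostaglandin receptor (171.6 and 151.9), and 222.3 kb from Brms1l (165.6 and 156.6). The strongest other pooled call within 100 kb of these 10 members had a signal of 5.98 to 20.3. The best core at the Fah peak had 3 mismatches, the most among the 10.

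Of the 10 strongest members at promoters, 6 lay at transcript starts of protein-coding genes and 4 at those of non-coding genes. The peaks at Ccdc192 and Ermard lay at transcript starts inside these genes. The nearest 5′ end of a protein-coding gene was 29.3 kb from the Ccdc192 peak and 24.3 kb from the Ermard peak. After Rab32 and Cpne8 came Gm47710, a long non-coding RNA, with 318.5 over a perfect core and only 1 other pooled call within 100 kb, Gm38584 with 299.1, and Ccdc192 with 293.5. Zfp788, a zinc finger gene, had 228.7 with 4 mismatches to the core, Gm13974 had 214.7, Ermard 214.5, the small nucleolar RNA gene Gm24580 206.5 and Msl3l2 206.4. The peak at Gm24580 had 1797 kb without another summit on 1 side.

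The most isolated peak lay in an intron of Cdh8, a classical cadherin of neurons, on chromosome 8 at 99051371 to 99051654, with 1721 kb to its nearer and 2624 kb to its farther neighbour. Its signal was 24.2 (11.9 in replicate 1 and 11.01 in replicate 2), and its best core had 3 mismatches. The next, on chromosome 2 at 99237032 to 99237315, had 1712 kb to the nearer neighbour, a core with 1 mismatch and a signal of 82.1 (45.7 in replicate 1 and 37.0 in replicate 2). The most isolated peak was thus the weaker of this pair in both replicates. The others among the 10 most isolated had signals of 11.98 to 58.1, and 1 of them, 367.4 kb from Gm9008 on chromosome 6, was absent from the list of replicate 1. In all, 522 members were isolated by more than 200 kb, 97 by more than 500 kb and 7 by more than 1 Mb.

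The weakest members had signals near those of the calls around them. The lowest signal, 9.43, was intergenic on chromosome 3 at 148246889 to 148247172, 743.5 kb from Adgrl2, an adhesion receptor, with 3.98 in replicate 1 and 5.29 in replicate 2. Another weak member, with 10.98 on chromosome 4 and 194.3 kb from Tmem64, was absent from replicate 1. A member in an intron of Trps1 (11.2) and another 281.2 kb from Tank (11.3) had 5 mismatches and each lay within 100 kb of a stronger pooled call, of 13.9 and 17.9.

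Many isolated peaks had another isolated peak as a neighbour. The neighbour of a member has a gap of more than 100 kb on 1 side by the rule itself. Runs are therefore in part set by the choice of members, and no share for comparison was computed. Of the 1487 members, 509 stood alone between peaks that were not isolated, 197 runs had 2 members and 146 runs had 3 or more, which made 852 runs in all. The longest run held 11 members over 6.52 Mb of chromosome 2, between summits at 94766729 and 101289378. Gaps of more than 100 kb between neighbouring summits numbered 4694 and covered 1349 Mb, 54.8% of the autosomes. An isolated peak bounded 2332 of these gaps, and 635 had an isolated peak at each end. Members made up 4.54% of the peaks of chromosome 3, 4.16% on chromosome 14 and 4.02% on chromosome 12, against 1.60% on chromosome 11 and 1.61% on chromosome 5. Per Mb the range was narrower, 0.428 on chromosome 5 to 0.762 on chromosome 3.

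Isolated peaks and their neighbours were less often convergent than other distant pairs. Neighbouring peaks with 1 best core each were sorted into convergent (forward core left, reverse core right), divergent and tandem pairs. Among 1350 pairs with an isolated peak, 27.1% (24.8 to 29.6) were convergent, 54.8% (52.1 to 57.5) tandem and 18.1% (16.1 to 20.2) divergent. Among 1204 pairs more than 100 kb apart with no isolated peak, where each peak had a closer neighbour on its other side, 37.5% (34.7 to 40.3) were convergent, 45.8% tandem and 16.7% divergent. Pairs at most 100 kb apart had 21.7% convergent, 53.0% tandem and 25.4% divergent. Isolated pairs thus lay between the other distant pairs and the close ones in their convergent share.

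Distance moved this share. Isolated pairs 100 to 200 kb apart were convergent in 22.6% (19.4 to 26.1), against 36.2% (33.0 to 39.6) of pairs of that distance with no isolated peak. At 200 to 400 kb the shares were 28.5% (23.99 to 33.3) and 38.6% (32.7 to 44.8), and beyond 400 kb 33.9% (28.9 to 39.2) and 44.2% (34.5 to 54.3). The intervals were apart at 100 to 200 kb and overlapped at both longer distances. A member can enter 2 pairs, 1 on each side, so pairs are not independent.

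**Figure D5:**
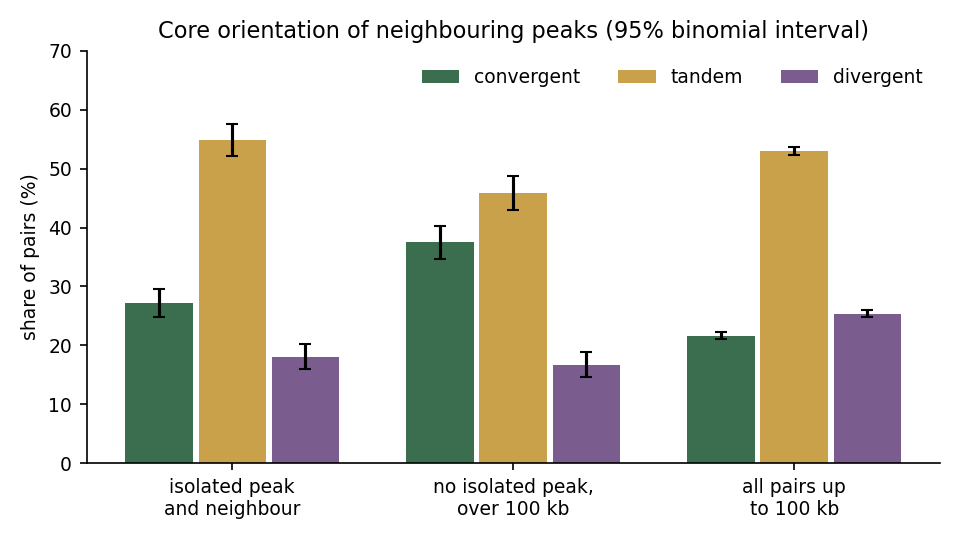
Share of convergent, tandem and divergent pairs of neighbouring peaks in percent, with 95% binomial intervals, for pairs with an isolated peak, pairs more than 100 kb apart with none, and pairs at most 100 kb apart. The convergent share is 27.1% for pairs with an isolated peak, against 37.5% for the other distant pairs and 21.7% for the close ones.

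The direction of the core relative to the nearer neighbour was examined after these shares were seen. Of 1133 isolated peaks with 1 best core and a neighbour on each side, 664 pointed to the farther neighbour, 58.6% (55.7 to 61.5), against 54.05% (53.5 to 54.6) of other peaks and 51.9% (51.1 to 52.7) of peaks with a summit within 5 kb. Where the nearer neighbour lay 20 to 100 kb away the share was 56.8% (55.6 to 57.9). Among members whose wider side was at least 2 times the nearer it was 62.8% (58.3 to 67.1), and among the rest 55.6% (51.7 to 59.4). Over perfect cores 62.2% (54.9 to 69.0) pointed to the farther side and with 2 mismatches 52.9% (48.2 to 57.7). The isolated peaks of replicate 1 alone gave 59.2% and those of replicate 2 alone 58.1%. Cores lay on the forward strand at 50.2% (47.3 to 53.2) of isolated peaks, so neither strand prevailed.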

How the data were processed

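CTCF was immunoprecipitated from 2 samples of newborn mouse liver, and the authors deposited 5 peak lists on mm10, per the labels. Each replicate and the pool of both has a list of 300000 peaks, and the optimal and conservative lists were made from these by the irreproducible discovery rate (IDR), which keeps peaks whose rank repeats, per the text deposited with the samples. Each replicate list was made with 1 further file of a kind not named. Which aligner, peak caller and thresholds were used is not given in the sources used here. For each peak, the deposited signal is the authors' value on a scale that is not stated, and it was used only to describe and rank peaks within a list. The offset from peak start to summit is also as deposited. No read counts were used, so depth is unknown. A control experiment named in the labels was not analysed here.

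The members and the gene lists were chosen with earlier results of these data known. Distances, annotation (GENCODE M21) and the core (reference GRCm38.p6, soft-masked for repeats) were computed with Python 3.11.15, numpy 2.4.6, pandas 2.3.3 and scipy 1.17.1, and the neighbour rule and the core search were tested on simulated data. A call closer than 500 bp to a member was taken as the member itself. No test was run between groups of peaks. Named are the 10 strongest, 10 most isolated and 10 strongest promoter members, the 5 weakest, the 5 on each side of the threshold, and genes from the 5 of each list with the strongest isolated peak; 1 gene is not reported here. Lsamp, Ptprd, Pcdh15, Sgcd and Lrrc4c were named for their counts of isolated peaks, after these were seen. Alternatives were isolation at 50 and 200 kb, other lists, each replicate alone, other mismatches, windows and promoter rules, and leaving out chromosome ends and assembly gaps.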

Additional observations from a re-analysis of the deposited data

How the results depend on the processing

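No paired analysis was possible because the series has 1 group. Depth is unknown, so no interval on a signal could be given, and the replicates share a biosample label. The set of isolated peaks depends on the threshold, with 3897 members at 50 kb and 522 at 200 kb, and 1480 to 1513 members with 1 replicate left out. The median signal of isolated over other peaks, 0.689 as reported, was 0.737 at 50 kb, 0.599 at 200 kb, 0.691 in the conservative list, 0.742 in the stronger 50% of the optimal list, 0.691 without chromosome ends, 0.693 without members near assembly gaps, and 0.679 to 0.679 with 1 replicate left out. It stayed below 1 in each of these. The ratio over a perfect core, not computed without chromosome ends or assembly gaps, was 0.507 at 50 kb, 0.338 at 200 kb, 0.472 in the conservative list and 0.615 among the stronger 50%.

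The share of isolated peaks with the core was 86.0% in the stronger 50% of the list, where other peaks had 83.9%, and 46.7% with at most 1 and 93.5% with at most 3 mismatches. It was 75.9% to 77.2% with 1 replicate left out. The promoter share was 10.2% at 50 kb, 6.13% at 200 kb, 10.3% in the stronger 50%, 6.93% from the 5′ ends of genes only, 21.3% within 5 kb of a start, and 8.31% to 8.39% with 1 replicate left out. The median GC share within 100 kb was 40.7% at 50 kb, 38.3% at 200 kb, 39.4% in the conservative list, 40.7% in the stronger 50%, and 39.3% to 39.4% with 1 replicate left out. The convergent share was 31.1% in the stronger 50% and 27.2% to 27.3% with 1 replicate left out. The share in both replicate lists was 99.1% in the conservative list, 100% in the stronger 50%, and 95.3% and 99.3% with summits within 50 and 250 bp, and it has no value with 1 replicate left out. Unbound cores numbered 0.334 per Mb when restricted to perfect ones. The share of cores that point to the farther neighbour was 57.9% at 50 kb and 58.6% at 200 kb, with 58.1% to 59.2% when 1 replicate was left out. The cause of these changes was not tested beyond the construction of each alternative.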
